A study of Homo sapiens with 24 samples.

Results

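The genes described here are 8 genes of drug handling, 6 ABC transporters (ABCB1, ABCC1, ABCC3, ABCC4, ABCG2 and ABCA1) and 2 cytochromes P450 (CYP1A1 and CYP1B1), in U87 MG cells, a human glioblastoma line. They were taken by name from the array, as every gene spot annotated with 1 of these symbols, which gave 8 of 30982 gene names and 12 of 41000 gene probes. Of the 12 probes, 10 were well above background often enough to be tested, and 30418 of all probes were. RNA was collected 24 h after proton therapy (PT) with 2 or 10 Gy and hybridized on 2-colour arrays in 4 configurations. In U87 2 Gy and U87 10 Gy, RNA of irradiated cells (Cy5) was set against RNA of untreated cells (Cy3). In the configurations U87 Si306 + 2 Gy and, at the higher dose, U87 Si306 + 10 Gy, RNA of cells given PT of that dose and 10 µM of Si306, an inhibitor of the tyrosine kinase SRC, was set against RNA of cells given PT of the same dose alone. Cy5 carried the treated RNA on every array and no dyes were swapped, so a dye effect and a treatment effect cannot be told apart within a configuration. All samples are labelled as cells of 1 line, and no configuration held cells given Si306 without protons.

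ABC transporters use ATP to move substrates across membranes. ABCB1 (P-glycoprotein), ABCG2 and the ABCC family export many unrelated drugs, and at the blood-brain barrier ABCB1 and ABCG2 keep drugs out of the brain, which makes them of interest in glioblastoma. CYP1A1 and CYP1B1 oxidize polycyclic aromatic compounds and some drugs, and their genes are switched on when the aryl hydrocarbon receptor AHR, bound by a ligand, pairs with ARNT on DNA. ABCA1 exports cholesterol to apolipoprotein A-I and is induced by the liver X receptors NR1H2 and NR1H3 together with a retinoid X receptor.

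The probes are 60-base oligonucleotides, and the sequences for 3 transporters are given because their probes differed in brightness and in agreement. ABCB1 was printed at 10 spots of each array and was never well above background, ABCC4 had 3 probes that did not give the same result, and ABCG2 had 1 probe that was bright on every array. All 5 probes lie on the minus strand of hg17, the build in the array's annotation. ABCB1 A_23_P82523 spans 3291 bases at chr7:86779964-86783254, ABCC4 A_23_P25559 spans 9002 bases at chr13:94484951-94493952 and ABCC4 A_24_P16913 spans 1846 bases at chr13:94611572-94613417, so that each of these 3 probes joins sequence on either side of an intron. ABCC4 A_24_P222291 lies at chr13:94636962-94637021 and ABCG2 A_23_P18713 at chr4:89370605-89370664, each in a single stretch. No base is set in capitals because no part of a probe was singled out.
ABCB1 A_23_P82523: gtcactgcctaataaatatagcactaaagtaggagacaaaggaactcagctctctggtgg
ABCC4 A_23_P25559: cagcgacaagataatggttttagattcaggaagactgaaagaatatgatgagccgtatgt
ABCC4 A_24_P16913: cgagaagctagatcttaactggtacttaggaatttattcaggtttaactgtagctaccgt
ABCC4 A_24_P222291: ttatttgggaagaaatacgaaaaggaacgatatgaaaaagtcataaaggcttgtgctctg
ABCG2 A_23_P18713: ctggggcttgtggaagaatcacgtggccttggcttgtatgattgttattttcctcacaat

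The region upstream of CYP1A1 is shown because this gene is the classical target of AHR, whose own probe changed in the arrays with Si306. In the RefSeq table of promoters (GRCh38.p14), 5 of the 8 genes were matched, and ABCC1, ABCC3 and CYP1B1 were not matched. The 250 bases before the CYP1A1 start, at chr15:74725529-74725778 on the minus strand, hold GCGTG, the core that AHR binds with ARNT, 1 time, in capitals.
CYP1A1 upstream: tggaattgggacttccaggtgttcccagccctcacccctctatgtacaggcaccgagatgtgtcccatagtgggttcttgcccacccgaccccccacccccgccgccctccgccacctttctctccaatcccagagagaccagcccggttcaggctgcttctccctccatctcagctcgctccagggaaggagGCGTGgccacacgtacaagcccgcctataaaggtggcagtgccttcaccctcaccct
GCGTG, read on both strands, was present in 36.5% of the 35116 windows of 300 bases in that table. The ABCC4 window held it 3 times and the window of ABCA1 held none. The liver X receptor element, a spaced direct repeat of AGGTCA, was in 0.0199% of the windows and in none of the matched genes' windows. Such matches describe the letters of these windows and no more.

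Some facts of the arrays bear on every value below. The 24 deposited tables, labelled as 6 biological replicates of each configuration, are 3 scans of each of 8 arrays, so n is 2 arrays for each configuration, and p-values measure only the spread between arrays, which may be technical. The scans labelled U87 2 Gy replicate 5 and U87 10 Gy replicate 2 each lie on an array of the other dose and were left out. Slide 1 holds the arrays with PT alone and slide 2 those with Si306, and RNA with the same label was unlike on the slides. For RNA labelled 2 Gy, 7.93% of 30366 probes (2409) differed by at least 4-fold between the slides, and for RNA labelled 10 Gy 7.95% of 30414 probes (2417). Within slide 1, PT and untreated RNA differed that much for 0.0823% of probes at 2 Gy and 0.26% at 10 Gy. The slide and the preparation of its RNA cannot be told apart. Of 10 genes of glioma and mesenchymal cells, 8 were above background in Cy3 on all arrays of slide 1 and 9 on all arrays of slide 2, VIM, CD44 and GFAP among them. SOX2 was above it in Cy3 on 0 arrays of slide 1 and 4 of slide 2, and S100B on 0 of both slides. MTAP, which is deleted in U87, was never above background, whereas CDKN2A, also in that deletion, was above it on all arrays. SNAP25, a neuronal gene, was above background in Cy3 on slide 1 only, and MBP and PECAM1 on slide 2 only. Of the markers of blood cells and microglia, PTPRC and AIF1 were above it on neither slide, CD68 was above it on all arrays, and CD3E on 4 arrays of slide 1 and 1 of slide 2. Over the list of 11 markers of other cell types, 4 were above background in Cy3 on all arrays of slide 1 and 5 on all arrays of slide 2. KRT18, of this list, was above it on all arrays of both slides, and EPCAM on 2 arrays of slide 1 and 4 of slide 2.

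CYP1B1 was the gene whose level differed most between the slides. Its log2 normalized intensity in untreated RNA was 13.61 and 13.53 on the U87 2 Gy arrays and 13.50 and 13.51 on the U87 10 Gy arrays, and in PT RNA of slide 1 it was 13.47 and 13.33 at 2 Gy and 13.35 and 13.40 at 10 Gy. In PT RNA of slide 2 it was 6.57 and 6.62 at 2 Gy and 6.50 and 6.46 at 10 Gy, not well above background on any of these 4 arrays. All values of slide 1 lay far above all values of slide 2, by 6.80 log2 units for RNA labelled 2 Gy, a gap larger than that of 99.9% of tested probes. Because the dimmer side was not well above background, the level was at least 112-fold higher on slide 1 at 2 Gy and at least 119-fold higher at 10 Gy. These are comparisons of intensities between slides and dyes, given as a description with no test.

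ABCA1 differed between the slides in the same direction and ABCC3 in the opposite one. The brightest ABCA1 probe (A_24_P235429) had log2 levels of 11.81 and 11.74 in 2 Gy RNA of slide 1 and of 7.40 and 7.27 in 2 Gy RNA of slide 2, which is 21.7-fold lower on slide 2 and a gap above that of 99.1% of probes. The other ABCA1 probes were not above background in Cy3 on slide 2, so that A_23_P216649 was at least 3.68-fold higher in 2 Gy RNA of slide 1 and no fold is given for A_24_P289265. ABCC3, an exporter of glucuronides and bile acids, had log2 levels of 9.41 and 9.35 in 2 Gy RNA of slide 1 against 10.84 and 10.88 on slide 2, 2.79-fold higher on slide 2 (85.5% of probes had a smaller gap). For ABCG2 these levels were 8.53 and 8.22 on slide 1 and 8.70 and 7.97 on slide 2, which overlap, and for ABCC1 7.41 and 7.33 against 7.16 and 7.12.

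**Figure D1:**
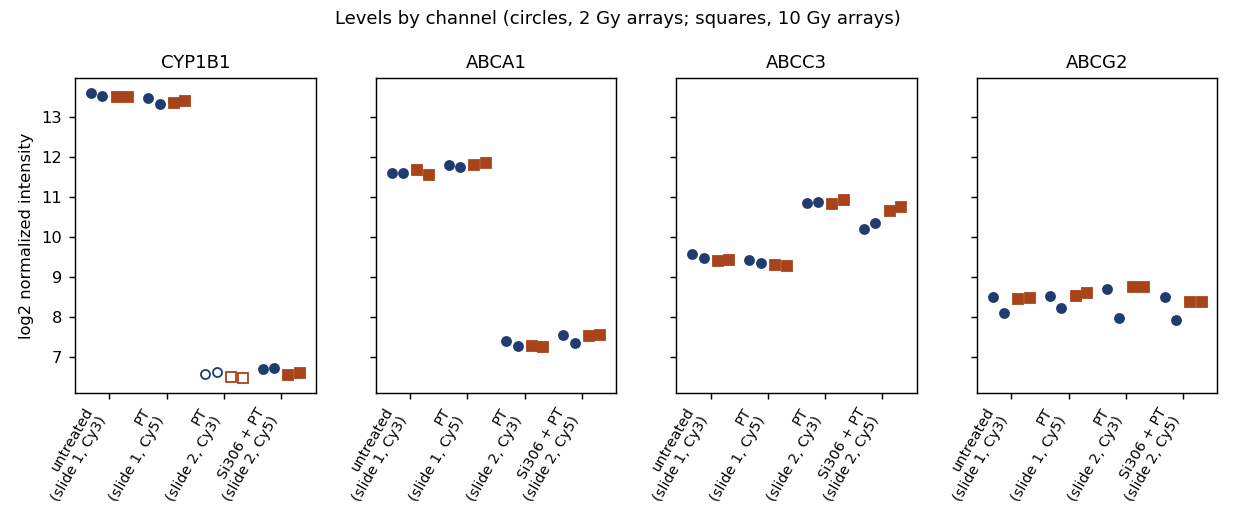
Log2 normalized intensity (vertical axis) of CYP1B1, the brightest ABCA1 probe, ABCC3 and ABCG2 in each kind of RNA, with 1 point for each array (circles, arrays of 2 Gy; squares, arrays of 10 Gy; open, not well above background). CYP1B1 and ABCA1 lay higher on slide 1 than on slide 2 in every RNA, ABCC3 lay lower, and ABCG2 overlapped, while within a slide the control and treated RNA of each gene lay close together.

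No transporter or CYP1 enzyme was called past 2-fold in any configuration by loess, though with Si306 the CYP1B1 control was not above background and CYP1A1 has no fold, and ABCB1 gave no value. With the log ratio of the scanner software CYP1A1 (1.07 in U87 Si306 + 2 Gy) and the ABCC4 probe A_23_P25559 (-1.17 and -1.08 with Si306) were past 2-fold. With at least 2-fold and an adjusted p under 0.05 in limma, 0 of the 7 genes with a tested probe were called in each of the 4 configurations, where 0.688% of all tested probes were called after PT with 2 Gy and 0.914% with 10 Gy, and 0.652% and 0.342% when Si306 was added to these doses. By the adjusted p alone, counting each gene by its brightest tested probe, 5, 4, 6 and 5 of the 7 genes were called in this order. The same held for 57.2%, 58.2%, 64.8% and 60.9% of all tested probes, so these counts do not set the 7 genes apart. The largest difference by loess was that of ABCC3 in U87 Si306 + 2 Gy, where it fell by 33.6%, but with median centring its log2 ratio was 0.25. The median log2 ratio over the 7 genes was -0.14, -0.10, 0.05 and -0.07, against 0.02, 0.01, 0.03 and 0.02 over all tested probes. Arrays of whole cultures cannot tell a change in the RNA of each cell from a change in the share of cells that hold it.

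**Figure D2:**
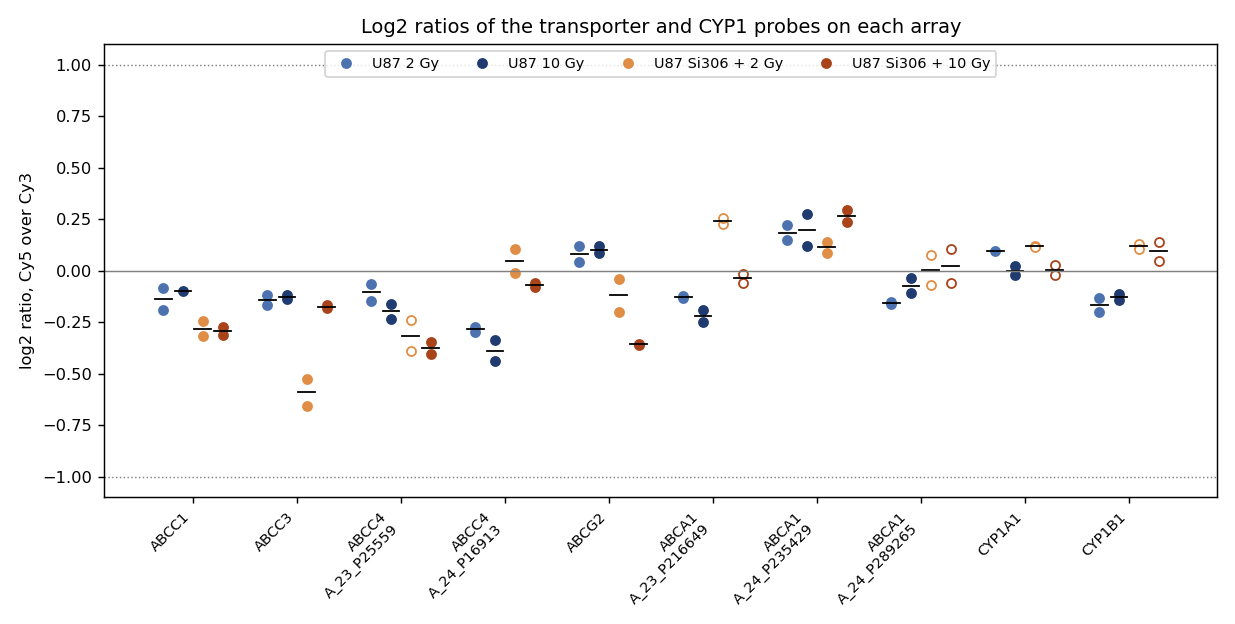
Log2 ratio of Cy5 over Cy3 (vertical axis) of each tested probe of the 7 genes, with 1 point for each array and a bar at the mean of a configuration. Open points mark a control that was not well above background on every array, and dotted lines mark 2-fold. No mean reaches a dotted line, ABCC3 in U87 Si306 + 2 Gy lies lowest at -0.59 (0.25 with median centring), and the ABCA1 and ABCC4 probes do not move together.

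The first comparison asked what PT alone did. In U87 2 Gy, 4 of the 7 genes were down regulated by the adjusted p (ABCC1, ABCC3, ABCC4 and CYP1B1) and 1 was up regulated (ABCA1), where 25.1% of all tested probes were lower and 32.1% higher. In U87 10 Gy, 3 were lower (ABCC3, ABCC4 and CYP1B1) and ABCA1 was higher, where 26.8% of all tested probes were lower and 31.4% higher. With median centring in place of loess, ABCC3 and CYP1B1 at both doses and ABCC1 and ABCC4 at 2 Gy turned positive, so that ABCA1 alone of the called genes kept its direction at 2 Gy. That scaling left the brightest 10% of probes at medians of 0.60 and 0.77 on the U87 2 Gy arrays. The ABCA1 probe was bright on slide 1, so its positive sign there is no separate check. The largest of the loess changes was 1.31-fold (ABCC4 in U87 10 Gy). ABCB1, the transporter best known for drug resistance, gave no value: its net intensity was between 18.7 and 36.1 in both channels on slide 1 and none of its 8 readings there was well above background.

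ABCC4, which exports cyclic nucleotides and nucleoside drugs, had the largest drop of the 7 genes after PT. Its brightest probe, A_24_P16913, read -0.27 and -0.30 on the U87 2 Gy arrays and -0.44 and -0.34 on the U87 10 Gy arrays. All 4 arrays lay below 0. The log2 fold change was -0.29 (SE 0.04, n = 2, limma adjusted p = 8.51e-05) at 2 Gy and -0.39 (SE 0.04, n = 2, limma adjusted p = 7.07e-06) at 10 Gy, but 0.02 and -0.11 when arrays were centred on their median in place of loess. The probe A_23_P25559 read -0.15 and -0.06 at 2 Gy, a mean of -0.10 that did not pass by loess (limma adjusted p = 0.0576) but did in 8 of 20 alternative settings. Among these it was -0.18 with median centring (limma adjusted p = 0.00542) and -0.36 with the log ratio of the scanner software (limma adjusted p = 0.0132). At 10 Gy it read -0.16 and -0.23, a mean of -0.20 that passed (limma adjusted p = 0.00212) but not without array 2 (-0.16). The probe A_24_P222291 was never above background.

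ABCC1 and ABCC3 fell by less. ABCC1, which exports glutathione conjugates and many anticancer drugs, read -0.09 and -0.19 at 2 Gy (mean -0.14, SE 0.04, limma adjusted p = 0.0114, 0.03 with median centring), and at 10 Gy array 1 was dropped as an outlier spot and array 2 read -0.10, which did not pass (limma adjusted p = 0.144). The 2 Gy call was lost without array 2 of that dose (-0.09, limma adjusted p = 0.184). ABCC3 read -0.17 and -0.12 at 2 Gy and -0.12 and -0.14 at 10 Gy, with means of -0.14 (SE 0.04, limma adjusted p = 0.00673) and -0.13 (SE 0.04, limma adjusted p = 0.012), but with median centring these were 0.36 and 0.30. The 4 arrays of ABCC3 had the same sign, and that sign depended on the scaling. Without 1 of the arrays the ABCC3 calls were lost at 2 Gy (array 1, limma adjusted p = 0.0855) and at 10 Gy (array 1, limma adjusted p = 0.072, or array 2, limma adjusted p = 0.113).

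ABCG2, the exporter of the blood-brain barrier and of stem-like cells, read 0.04 and 0.12 at 2 Gy and 0.08 and 0.12 at 10 Gy. All 4 arrays lay above 0, but by loess neither mean passed the test (0.08, limma adjusted p = 0.115, and 0.10, limma adjusted p = 0.0539), and their 95% intervals were -0.01 to 0.17 and 0.01 to 0.19. With median centring these means were 0.44 and 0.46, and the 10 Gy value passed the test in 10 of 23 alternative settings.

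ABCA1, the cholesterol exporter, gave opposite signs on its 3 probes. The brightest, A_24_P235429, read 0.22 and 0.15 at 2 Gy and 0.12 and 0.28 at 10 Gy, with means of 0.18 (SE 0.04, limma adjusted p = 0.00323) and 0.20 (SE 0.04, limma adjusted p = 0.00198). With median centring, which left bright probes above 0, these means were 0.79 and 0.71. The probe A_23_P216649 read -0.13 and -0.12 at 2 Gy and -0.25 and -0.19 at 10 Gy, with means of -0.13 (limma adjusted p = 0.00572) and -0.22 (limma adjusted p = 0.000153), which turned to 0.27 and 0.13 with median centring. The probe A_24_P289265, annotated to a different transcript, gave -0.16 (limma adjusted p = 0.0151) and -0.07 (limma adjusted p = 0.208). The mean of the 3 probes was -0.03 at both doses, so the rise of ABCA1 rests on 1 probe. That rise was lost without array 1 at 2 Gy (limma adjusted p = 0.0622) and without array 2 at 10 Gy (limma adjusted p = 0.089).

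CYP1A1 and CYP1B1 were both above background on slide 1. CYP1A1 read 0.10 on array 1 of U87 2 Gy, where array 2 was dropped as an outlier spot, and 0.02 and -0.02 on the U87 10 Gy arrays, and neither dose passed the test (limma adjusted p = 0.115 and 0.996). CYP1B1 read -0.13 and -0.20 at 2 Gy and -0.14 and -0.11 at 10 Gy, all below 0. Its means were -0.17 (SE 0.04, limma adjusted p = 0.00206) and -0.13 (SE 0.04, limma adjusted p = 0.00981), 1.12-fold and 1.09-fold lower after PT, and 0.50 and 0.43 with median centring. The 10 Gy call was lost without array 1 of that dose (limma adjusted p = 0.115). With the log ratio of the scanner software the values were as large (-0.18 and -0.13) but neither passed (limma adjusted p = 0.317 and 0.469).

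The second comparison asked what Si306 added to PT. In U87 Si306 + 2 Gy, 3 of the 7 genes were lower by the adjusted p (ABCC1, ABCC3 and ABCG2) and 2 higher (ABCA1 and CYP1B1), without CYP1A1, whose ratio passed but whose control was above background on no array and treated RNA on 1, where 28.5% of all tested probes were lower and 36.3% higher. In U87 Si306 + 10 Gy the same 3 transporters were lower and ABCA1 and CYP1B1 higher, where 27.8% of all tested probes were lower and 33.1% higher. With median centring ABCC3 and ABCG2 turned positive and CYP1A1 and CYP1B1 negative, and ABCC1 and ABCA1 kept their direction. ABCB1 was again not above background on any array.

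ABCC3 had the largest drop. It read -0.65 and -0.52 on the U87 Si306 + 2 Gy arrays and -0.18 and -0.17 on the U87 Si306 + 10 Gy arrays. All 4 arrays lay below 0, and those of the lower proton dose lay lowest, without overlap. The log2 fold change was -0.59 at 2 Gy (SE 0.04, n = 2, limma adjusted p = 1.97e-07) and -0.18 at 10 Gy (SE 0.04, n = 2, limma adjusted p = 0.00182), where ABCC3 fell by 11.5%, but with median centring these values were 0.25 and 0.40. With the log ratio of the scanner software they were -0.60 and -0.15.

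ABCC1 read -0.25 and -0.32 in U87 Si306 + 2 Gy and -0.31 and -0.28 in U87 Si306 + 10 Gy, 4 arrays close together and below 0. Its means were -0.28 (SE 0.04, limma adjusted p = 0.000108) and -0.29 (SE 0.04, limma adjusted p = 9.18e-05), 1.22-fold and 1.23-fold lower with Si306, and with median centring they were -0.31 and -0.29. ABCC1 was lower at both doses in all 23 settings tried, from -0.06 to -0.67 at 2 Gy and from -0.02 to -0.79 at 10 Gy, and passed the test in 22 of them.

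ABCG2 read -0.20 and -0.04 in U87 Si306 + 2 Gy and -0.35 and -0.36 in U87 Si306 + 10 Gy. Its 4 arrays lay below 0, with 1 array of the lower dose close to it. The means were -0.12 (SE 0.04, limma adjusted p = 0.0248) and -0.36 (SE 0.04, limma adjusted p = 2.08e-05), 1.09-fold and 1.28-fold lower, against 0.36 and 0.02 with median centring. The 2 Gy call was lost without array 1 (-0.04, limma adjusted p = 0.528).

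ABCC4 again depended on the probe. The brightest probe, A_24_P16913, read 0.10 and -0.01 in U87 Si306 + 2 Gy and -0.08 and -0.06 in U87 Si306 + 10 Gy, and neither mean passed the test (0.05, 95% interval -0.04 to 0.13, limma adjusted p = 0.325, and -0.07, 95% interval -0.16 to 0.02, limma adjusted p = 0.14). The mean of its tested probes passed at both doses (-0.14, limma adjusted p = 0.00199, and -0.22, limma adjusted p = 9.39e-05). The probe A_23_P25559 read -0.39 and -0.24 at 2 Gy and -0.35 and -0.41 at 10 Gy, with means of -0.32 (limma adjusted p = 6.61e-05) and -0.38 (limma adjusted p = 1.96e-05). With median centring these means were -0.68 and -0.50. That scaling left the dimmest 10% of probes at medians of -0.64 and -0.50 on the 2 Gy arrays and -0.25 and -0.30 on the 10 Gy arrays. The probe A_23_P25559 was dim, with 1 of the U87 Si306 + 2 Gy arrays not above background in either channel, so its negative sign with median centring is no separate check. With the log ratio of the scanner software its values were -1.17 and -1.08, past 2-fold.

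ABCA1, CYP1A1 and CYP1B1 were near background on slide 2. The brightest ABCA1 probe, above background in both channels, read 0.14 and 0.08 at 2 Gy and 0.23 and 0.29 at 10 Gy. Its means were 0.11 (SE 0.04, limma adjusted p = 0.0359) and 0.26 (SE 0.04, limma adjusted p = 0.000261), and with median centring 0.29 and 0.39. The mean of the 3 probes at 10 Gy was 0.08 (limma adjusted p = 0.051), but 2 of them had a control not above background there, so it is no test of the brightest probe. The 2 Gy call was lost without either of its arrays (limma adjusted p = 0.276 without array 1 and 0.0789 without array 2).

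For CYP1B1 the PT control was not well above background on slide 2, so only bounds can be given. CYP1B1 was at least 1.09-fold higher with Si306 at 2 Gy (arrays 0.13 and 0.11, limma adjusted p = 0.0134) and at least 1.07-fold higher at 10 Gy (arrays 0.05 and 0.14, limma adjusted p = 0.0418), whereas with median centring the log2 ratios were -0.14 and -0.09. The 2 Gy call was lost without either of its arrays (limma adjusted p = 0.121 and 0.0616). The 10 Gy call was lost without array 2 (0.05, limma adjusted p = 0.484) and also without either array of U87 10 Gy (limma adjusted p = 0.0541) or of U87 Si306 + 2 Gy (limma adjusted p = 0.0529). CYP1A1 had a control above background on no array of slide 2 and treated RNA above it on 1 of the arrays of each dose, so no fold is given. At 2 Gy the arrays read 0.12 and 0.12 (limma adjusted p = 0.0117), a p that compares intensities near background and was lost without either array (limma adjusted p = 0.0859 and 0.076), and at 10 Gy the arrays read 0.03 and -0.02. With median centring CYP1A1 was -0.34 and -0.27, and with the log ratio of the scanner software 1.07 and 0.81. The ABCA1 probe A_23_P216649, whose control was also not above background, had a measured log2 ratio of 0.24 at 2 Gy (arrays 0.23 and 0.26, limma adjusted p = 6.82e-05). This value was 0.00 with median centring and 0.04 with outlier spots kept, and at 10 Gy no fold is given.

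The loess ratios were small beside what scaling and background handling can move. With median centring, a trend with intensity was left in the ratios. The brightest 10% of probes had median log2 ratios of 0.55 to 1.19 by array and the dimmest 10% of -0.64 to -0.25, whereas with loess the medians were -0.01 to 0.00 and 0.02 to 0.04. The median of all tested probes moved to between 0.20 and 0.38 with median centring, and the values above are to be read against that shift. When outlier spots were kept, most values drew towards 0 (ABCC1 -0.02 and ABCG2 -0.07 in U87 Si306 + 10 Gy), and 2, 2, 1 and 0 of the 7 genes passed the test in the 4 configurations, ABCC3 (-0.42, limma adjusted p = 0.000623) being the 1 in U87 Si306 + 2 Gy. The share of all tested probes that passed in this setting was not counted, so these counts do not set the 7 genes apart.

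The last comparison set the proton doses against each other within each arm, where a dye effect of a probe that is the same on all arrays drops out. Between U87 10 Gy and U87 2 Gy, 0 of the 7 genes differed by the limma adjusted p, and 0 by an unadjusted p under 0.05, where 19.8% of all tested probes differed (9.23% higher and 10.6% lower at 10 Gy) and 0.0395% by 2-fold. The 95% intervals of the differences lay within -0.23 and 0.23 for all 10 tested probes. Between U87 Si306 + 10 Gy and U87 Si306 + 2 Gy, 1 of the 7 genes was higher at 10 Gy (ABCC3) and 1 lower (ABCG2), where 21.1% of all tested probes differed (9.31% higher and 11.8% lower) and 0.155% by 2-fold, none of the 7 genes among them.

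ABCC3 was 0.41 log2 units higher at 10 Gy than at 2 Gy (SE 0.05, 95% interval 0.30 to 0.53, limma adjusted p = 0.000482), that is, its drop with Si306 was smaller at the higher proton dose. The array values of -0.65 and -0.52 and of -0.18 and -0.17 did not overlap. The difference was positive in all 23 settings, from 0.14 to 0.48, and it did not pass with median centring (0.14, limma adjusted p = 0.126). ABCG2 went the other way, with -0.24 (SE 0.06, 95% interval -0.37 to -0.11, limma adjusted p = 0.0154), and its array values did not overlap either. It was negative in all 23 settings, with median centring -0.34, but did not pass in 4 of them: with outlier spots kept (-0.03), and without array 2 of U87 Si306 + 2 Gy (limma adjusted p = 0.11) or array 1 or 2 of U87 Si306 + 10 Gy (limma adjusted p = 0.0686 and 0.0777). The ABCG2 control levels of the U87 Si306 + 2 Gy arrays, 8.70 and 7.97, were further apart than those of the U87 Si306 + 10 Gy arrays, 8.73 and 8.74, and their part in this difference was not tested. The measured ratios of the ABCA1 probe A_23_P216649 also differed (-0.28, limma adjusted p = 0.00231). Over the 20 settings tried this difference ranged from -0.92 to -0.04 (outlier spots kept), with -0.17 under median centring (limma adjusted p = 0.0693). The control of this probe was not above background at either dose, so the size of a difference in RNA cannot be read from these ratios.

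**Figure D3:**
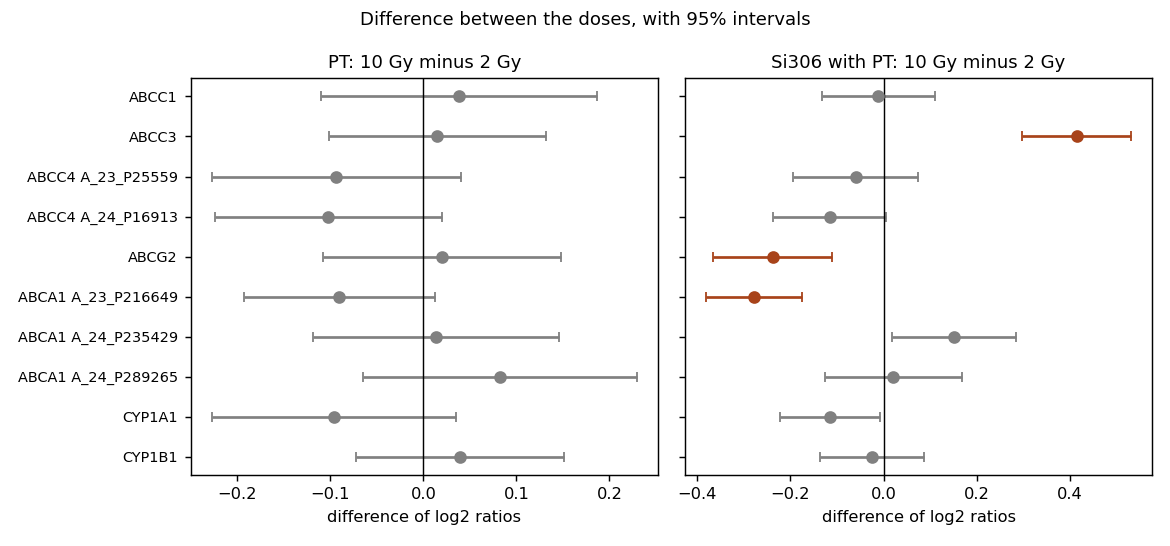
Difference of log2 ratios between 10 Gy and 2 Gy (horizontal axis) for each tested probe, after PT (left) and after Si306 with PT (right). Points are limma estimates, bars are 95% intervals, and coloured points passed the adjusted p: none after PT, and ABCC3 (0.41), ABCG2 (-0.24) and, on a control not above background, 1 ABCA1 probe (-0.28) with Si306.

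The sum of a PT configuration and its Si306 configuration stands for the net change from untreated cells. At 2 Gy 2 of the 7 genes had a sum called higher, 1 of them CYP1A1, which was near background on slide 2, and 3 a sum called lower, where 66.6% of all tested probes passed (39.7% higher, 26.9% lower, 1.84% by 2-fold). At 10 Gy 1 was higher and 4 lower, where 65.5% passed (37.4% higher, 28.1% lower, 2.06% by 2-fold). This sum takes the PT RNA of slide 1 to be that of slide 2, and the levels of CYP1B1, ABCA1 and ABCC3 differed between them, and CYP1A1 and CYP1B1 had a control not above background on slide 2, so no net fold is given for a gene or over the genes. Of the 10 tested probes, 4 had the same sign in all 4 configurations (ABCC1, ABCC3 and ABCC4 A_23_P25559 negative, ABCA1 A_24_P235429 positive), or 40%, against 36% of 30362 tested probes.

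By loess the configuration means of ABCC3 ranged over 0.46, as did those of ABCG2, more than those of the other members. With median centring the means of ABCC3 lay closer, from 0.25 to 0.40, and those of CYP1B1 farther apart, from -0.14 to 0.50. The genes with loess ratios most similar to those of ABCC3 over the 8 arrays, by Euclidean distance, were GRAMD1C (0.18), IFI30 (0.22), BAHCC1 (0.23) and GBP3 (0.23), along with 1 probe listed only by a transcript identifier (0.22). GRAMD1C read -0.60 and -0.69 in U87 Si306 + 2 Gy and -0.16 and -0.12 in U87 Si306 + 10 Gy.

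The receptor genes behind CYP1A1 and CYP1B1, and CYP1A2, had larger ratios in some configurations. AHR, the ligand-activated receptor itself, read 0.84 and 0.86 in U87 Si306 + 2 Gy and 0.80 and 0.80 in U87 Si306 + 10 Gy. Its log2 fold changes were 0.85 (SE 0.03, limma adjusted p = 4.69e-09) and 0.80 (SE 0.03, limma adjusted p = 1.23e-08), 1.80-fold and 1.74-fold, and 1.91 and 1.48 with median centring. After PT, AHR was -0.09 and -0.14, values that passed the test but turned to 0.56 and 0.39 with median centring. ARNT, its partner, was lower in U87 10 Gy (-0.65, SE 0.03, limma adjusted p = 3.96e-08, and -0.34 with median centring) and higher with Si306 (0.28 at 2 Gy and 0.45 at 10 Gy), with 0.89 and 0.86 under median centring. CYP1A2, the third CYP1 enzyme, rose with Si306 by 0.91 at 2 Gy (arrays 0.95 and 0.88, limma adjusted p = 9.09e-09) and by 0.51 at 10 Gy (arrays 0.47 and 0.54), and by 1.52 and 0.85 with median centring. HIF1A, which also pairs with ARNT, was 0.59 and 0.41 after PT and 0.22 and 0.13 with Si306, and with median centring 1.20 and 0.91 after PT and 1.16 and 0.73 with Si306. Other target genes of AHR are TIPARP, NQO1, AHRR and UGT1A6, named after their values were seen. TIPARP was 0.20 and 0.65 after PT and 0.10 (limma adjusted p = 0.0355) and 0.09 (limma adjusted p = 0.0553) with Si306, and with median centring 0.82 and 1.16 after PT and 1.09 and 0.73 with Si306. NQO1 was 0.12 (limma adjusted p = 0.0301) and 0.01 (limma adjusted p = 0.854) with Si306, and neither value after PT passed (-0.04 at both doses). AHRR was 0.18 (limma adjusted p = 0.00105) and 0.10 (limma adjusted p = 0.0216) after PT, and its control was not above background with Si306. UGT1A6 lay between -0.02 and 0.06 and passed in no configuration. Of the 13 tested genes of AHR machinery and targets, 6 were higher and 4 lower after 2 Gy and 5 and 3 after 10 Gy, while with Si306 9 were higher and 2 lower at 2 Gy and 6 and 1 at 10 Gy, with none called past 2-fold by loess. In the same order 32.1%, 31.4%, 36.3% and 33.1% of all tested probes were higher and 25.1%, 26.8%, 28.5% and 27.8% lower. The median over this list was -0.01, 0.08, 0.15 and 0.09 in that order.

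Among the 14 genes of liver X receptor and cholesterol efflux, 9 were higher and 2 lower after 2 Gy and 5 and 6 after 10 Gy, while with Si306 3 were higher and 8 lower at 2 Gy and 4 and 7 at 10 Gy, with medians of 0.12, 0.04, -0.16 and -0.08, against the same shares of all tested probes. NR1H2 was higher after PT (0.31 and 0.34), and NR1H3 with Si306 (0.29 and 0.39). With median centring these were 0.81 and 0.78 for NR1H2 and 1.23 and 0.99 for NR1H3. That scaling left the brightest 10% of probes at medians of 0.55 to 1.19 by array, so a positive sign there is no separate check. RXRA fell by 0.37 and 0.55 after PT on the log2 scale, with median centring 0.18 and -0.09, and RXRB rose by 0.43 on its 1 usable array at 2 Gy and by 0.32 at 10 Gy.

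**Figure D4:**
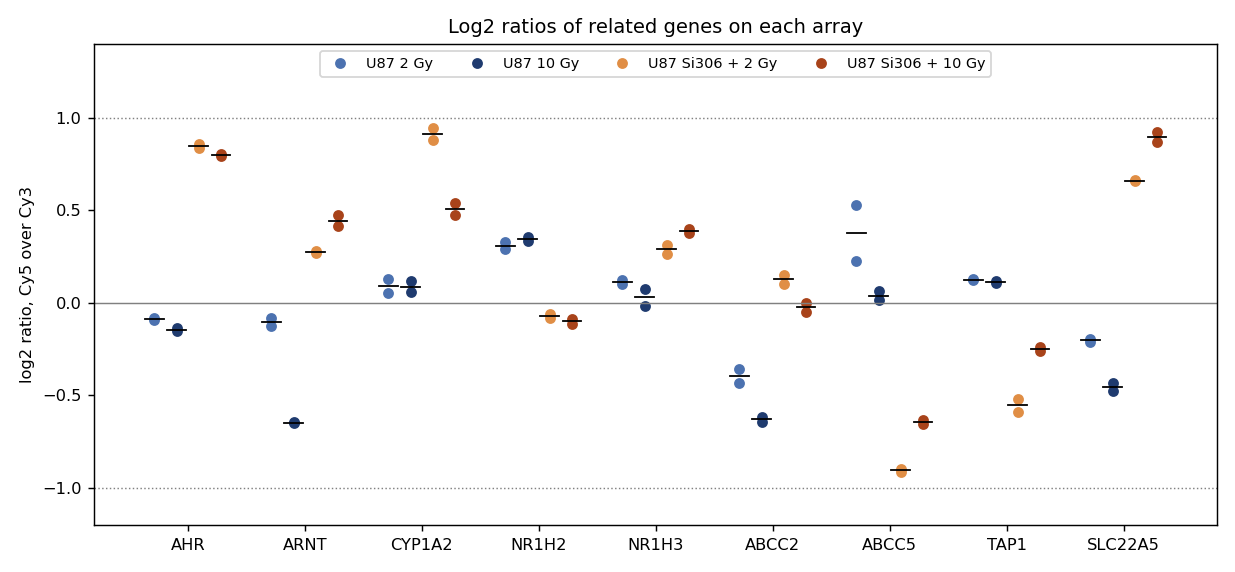
Log2 ratio of Cy5 over Cy3 (vertical axis) on each array for receptors and carriers related to the transporters and CYP1 enzymes, with a bar at the mean of a configuration and dotted lines at 2-fold. By loess, AHR and SLC22A5 lay above 0 with Si306 and below it after PT, and ABCC5 and TAP1 lay below 0 with Si306, whereas with median centring TAP1 was above 0 with Si306, AHR was above 0 after PT and SLC22A5 was above 0 in U87 2 Gy.

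Of the 8 other multidrug exporters of the ABC family, 4 were tested, and 2, 1, 2 and 1 were higher and 1, 2, 2 and 2 lower in the 4 configurations. ABCC5, which exports cyclic nucleotides as ABCC4 does, read -0.90 and -0.91 in U87 Si306 + 2 Gy and -0.66 and -0.64 in U87 Si306 + 10 Gy. Its means were -0.91 (SE 0.06, limma adjusted p = 1.7e-07) and -0.65 (SE 0.06, limma adjusted p = 2.5e-06), but -0.04 and -0.08 with median centring. ABCC2, a canalicular exporter of conjugates, was -0.40 in U87 2 Gy (0.14 with median centring) and -0.63 in U87 10 Gy (-0.18 with median centring), and its control was not above background on slide 2. Of 25 other tested ABC proteins, 6, 9, 10 and 6 were higher and 6, 5, 6 and 6 lower in the 4 configurations, where 31.4% to 36.3% of all tested probes were higher and 25.1% to 28.5% lower. TAP1, a peptide transporter of antigen presentation, was -0.55 and -0.25 with Si306, and 0.65 and 0.52 with median centring. ABCA5 was higher in all 4, from 0.20 to 0.37 by loess and from 0.51 to 1.07 with median centring. ABCA10 was below background on both sides.

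Among uptake carriers, conjugating enzymes and other cytochromes P450, no gene was called past 2-fold by loess in the 4 configurations. Other scalings were read for the named genes only. With median centring SLC22A5, GSS, UGT2B7 and POR were past 2-fold in at least 1 configuration. With the log ratio of the scanner software SLC22A5 was 1.03 in U87 Si306 + 10 Gy and CYP2B6, on a control not above background, 2.66 in U87 Si306 + 2 Gy. SLC22A5, a carnitine carrier, had the largest ratio of the carriers in every configuration but U87 2 Gy, with -0.20 and -0.46 after PT (0.25 and -0.07 with median centring) and 0.66 and 0.90 with Si306 (1.34 and 1.36 with median centring). Of 13 tested carriers 3, 3, 4 and 4 were higher and 3, 4, 5 and 5 lower, and of 22 tested conjugating enzymes 8, 13, 12 and 13 were higher and 3, 1, 5 and 4 lower. GCLM, the modifier subunit of glutathione synthesis, was -0.49 and -0.39 after PT (0.08 and 0.10 with median centring), and EPHX1, an epoxide hydrolase, was 0.48 and 0.50. UGT2B7 was 0.49 in U87 Si306 + 2 Gy, GSS was 0.46 in U87 Si306 + 10 Gy, and SLCO3A1, the carrier of largest ratio in U87 2 Gy, was 0.25 there. Of 11 tested xenobiotic receptors and cytochromes P450, 3, 2, 4 and 3 were higher and 2, 2, 3 and 2 lower. These counts stand against 31.4% to 36.3% of all tested probes higher and 25.1% to 28.5% lower. POR, the electron donor of the microsomal P450 enzymes, was 0.53 and 0.28 after PT, CYP2B6 had a control not above background in U87 Si306 + 2 Gy and is given no fold, and NR1I3 was not above background in U87 Si306 + 10 Gy.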

How the data were processed

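RNA of U87 MG cells was measured on 2-colour Agilent arrays. The authors deposited tables of Agilent Feature Extraction 9.5.3.1 with the mean signal intensity and background of both dyes for 45015 spots and a log10 ratio, and a series matrix of that log10 ratio, rounded. Intensities were used here, with decimal commas read as points. Of the 24 scans, 22 were used (2 were labelled against their array). Outlier spots (2.98% to 5.73%) were left out. Background was corrected with normexp (offset 50), ratios were normalized by loess, and scans were averaged by array. In Cy5 62.4% to 73.9% of probes, and in Cy3 56.3% to 65.5%, were well above background, and the number of arrays limits the precision. Probes were kept that exceeded background, in Cy5 or Cy3, on 2/3 or more of the arrays of any configuration. Levels by channel were scaled with Aquantile. All 4 configurations entered 1 fit in limma 3.58.1 (R 4.3.3, the data.table package in version 1.17.8, statmod 1.5.0), with Benjamini-Hochberg adjustment over tested probes (limit 0.05), 4 residual degrees of freedom and a prior of 6.79 with an SD of 0.0548. The fit, tested on simulated data for U87 Si306 + 2 Gy with 28276 probes, recovered 60% of changes of 0.25 on the log2 scale, 96% of 0.5 and 100% of 1. Only 50 probes were changed at each size and no dye effect was simulated, so this recovery need not hold for the arrays. The genes and lists were chosen with earlier results of these data known. Besides the 8 genes, the text names from each list the gene that moved most in each configuration, AHR, ARNT, NR1H2 and NR1H3, and the 5 genes most like the gene of widest range by loess. Some genes that this rule names are not reported here, and TIPARP, NQO1, AHRR and UGT1A6 were added after their values were seen. The lists were other multidrug exporters, other ABC proteins, AHR machinery and targets, liver X receptor genes, xenobiotic receptors and P450 enzymes, conjugating enzymes, carriers, and 3 lists of cell markers. Alternatives were other background corrections, the deposited log10 ratios, median centring, other filters and probes, other uses of scans, arrays left out, and a curve on GC content.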

Additional observations from a re-analysis of the deposited data

Results flagged for a closer look

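By loess, 3 of the differences between the effect of Si306 at 10 Gy and at 2 Gy passed limma's test of the difference itself. ABCC3 differed by 0.41 (limma adjusted p = 0.000482), but with median centring, where it was 0.25 at 2 Gy and 0.40 at 10 Gy, the difference was 0.14 and did not pass (limma adjusted p = 0.126). ABCG2 differed by -0.24 (limma adjusted p = 0.0154), and with median centring its ratios were 0.36 at 2 Gy and 0.02 at 10 Gy. This call was lost with outlier spots kept (-0.03), without array 2 of U87 Si306 + 2 Gy (limma adjusted p = 0.11), and without array 1 or array 2 of the 10 Gy dose (limma adjusted p = 0.0686 and 0.0777). The ABCA1 probe A_23_P216649 had measured ratios that differed by -0.28 (limma adjusted p = 0.00231), but its control was not well above background at either dose, so the size of a difference in RNA cannot be read from them. Each rests on 2 arrays a dose.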

How the results depend on the processing

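The text's values of 10 probes in 6 comparisons and 23 settings gave 1308 pairs of a value and a setting, of which 1177 kept their side of the threshold with no called value turned round, 81 no longer passed, 28 newly passed and 22 turned round, 17 of these being values that had passed. Among the 1177 are 60 values that passed in neither setting and changed sign. Of the 22, 19 came with median centring: in U87 2 Gy ABCC1 0.026, ABCC3 0.36, ABCC4 A_24_P16913 0.022, ABCA1 A_23_P216649 0.27 and CYP1B1 0.50, in U87 10 Gy ABCC3 0.30, ABCA1 A_23_P216649 0.13 and CYP1B1 0.43, in U87 Si306 + 2 Gy ABCC3 0.25, ABCG2 0.36, ABCA1 A_24_P289265 -0.63, CYP1A1 -0.34 and CYP1B1 -0.14, in U87 Si306 + 10 Gy ABCC3 0.40, ABCG2 0.018, ABCA1 A_24_P289265 -0.39, CYP1A1 -0.27 and CYP1B1 -0.093, and in the dose difference of Si306 ABCC4 A_23_P25559 0.18. The other 3 came with the mean of a gene's probes, ABCA1 -0.034 in U87 2 Gy and -0.032 in U87 10 Gy, and ABCC4 -0.14 in U87 Si306 + 2 Gy. The cause was not tested.

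The count of genes that passed in U87 2 Gy was 3 in place of 5 with the scanner software's log ratio and with the series matrix, and in U87 Si306 + 2 Gy each of these called 1 gene past 2-fold (CYP1A1). Without the arrays that hold a scan of another label the counts were 3 in U87 2 Gy and 2 in U87 10 Gy. With outlier spots kept they were 2, 2, 1 and 0 in the 4 configurations, 1 for the dose difference of Si306, and 2 and 1 for the net changes, and with median centring the dose difference of Si306 gave 1. With arrays left out in turn the counts ranged from 3 to 5, 2 to 5, 2 to 6 and 4 to 5 in the 4 configurations, from 0 to 0 and 1 to 2 for the dose differences of PT and of Si306, and from 4 to 5 for both net changes. The low counts came without array 1 of U87 2 Gy (3), either array of U87 10 Gy (2 each), array 1 or 2 of U87 Si306 + 2 Gy (2 and 3) and, for the dose difference, array 2 of U87 Si306 + 2 Gy or either array of U87 Si306 + 10 Gy (1 each). The filter on both channels of all 8 arrays was added after seeing the data, and turned no value round.

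With the replicate number as a block, 4, 4, 4 and 4 genes passed in the 4 configurations, 0 and 3 in the dose differences and 4 and 5 in the net changes. Same-numbered scans of different configurations correlated between -0.09 and 0.09 (30 pairs, 0 over 0.1), so the numbers do not pair them. The slide could not be fitted as a block, since each configuration lies on 1 slide. With 2 arrays a configuration and no dye swap, no depth of scanning separates dye from treatment, and for probes not above background no exact fold can be read.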
